A study of Mus musculus with 4 samples.

Results

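The LIM-homeodomain genes encode transcription factors that carry a pair of LIM zinc-finger domains beside a DNA-binding homeodomain. The group described here is Lhx1, Lhx2, Lhx3, Lhx4, Lhx5, Lhx6, Lhx8, Lhx9, Isl1 and Isl2, chosen by name. Each was represented by 1 transcript cluster (the set of probes that covers a gene) assigned to that symbol alone, so 10 of 10 genes were measured, among 20252 genes in all. Lmx1a and Lmx1b, the other LIM-homeodomain genes considered, are described with the cofactors.

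The homeodomain binds short AT-rich sites, and the LIM domains recruit the adaptor protein Ldb, which joins LIM-homeodomain factors into larger complexes. LIM-only (Lmo) proteins compete for the same adaptor. In the embryo, different members mark different neurons and regions, and Lhx2 is required for the eye to form and is used by retinal progenitors. The genes fall into pairs of close relatives: Lhx1 with Lhx5, Lhx2 with Lhx9, Lhx3 with Lhx4, Lhx6 with Lhx8, and Isl1 with Isl2.

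RNA came from the neuroretina, the inner neural layer of the optic cup, dissected from CD-1 mice at embryonic day 13.5. In 2 arrays the embryos carried the Chx10-Cre transgene and loxP-flanked Lhx2 alleles (genotype Chx10-Cre;Lhx2 lox/lox, called the Chx10-Cre arrays), and in 2 arrays the same loxP-flanked alleles with no transgene named (Lhx2 lox/lox, called the lox/lox arrays). Cre recombinase removes DNA between loxP sites, and the Chx10 promoter is active in retinal progenitors, where Cre driven from it is known to act in a mosaic of cells. The comparison asks which genes differ when Lhx2 is targeted in those progenitors, as the series title states its subject. Cre was named in 1 of the 2 groups only, so what the transgene does by itself and what Lhx2 loss does cannot be told apart. Whether replicates were separate animals or pools is not in the labels, so every p-value rests on array-to-array spread that may be technical.

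Values are log2 signals as deposited, so a difference of 1 is a doubling. The median over all 112205 transcript clusters was 2.85 and 3.46 in Chx10-Cre replicates 1 and 2, and 2.97 and 3.53 in lox/lox replicates 1 and 2. Signals at or below the 75th percentile of all clusters on their array (3.98 and 4.52 in the Chx10-Cre arrays, 4.06 and 4.52 in the lox/lox arrays) are treated here as not told from background. Of 9 measured neuroretina progenitor markers, 9 lay lower in the Chx10-Cre arrays (median log2 difference -1.36), and Chx10 itself was not analysed here. The summed signals of 9 periocular mesenchyme markers were 11.22 and 9.01 in the Chx10-Cre arrays and 7.46 and 7.88 in the lox/lox arrays on the log2 scale. Those of 9 retinal pigment epithelium markers were 10.02 and 9.04 in the Chx10-Cre arrays and 7.06 and 8.58 in the lox/lox arrays. On the deposited values 7 of these 9 mesenchyme markers and 6 of these 9 pigment epithelium markers rose, against 0 and 0 after median centring. Over all genes 1.27% rose on the deposited values and 0.257% were called higher after centring. Centring moved every log2 difference by the same small amount (Col1a1 from 3.33 to 3.25, Dct from 2.32 to 2.24). In the centred fit a gene's own replicates also enter its SE, so a lost call there is not a lost difference. The median log2 differences of vessel, macrophage, lens and muscle markers were 0.87, 0.43, -0.22 and 0.81. The mesenchyme and pigment epithelium sums were highest in Chx10-Cre replicate 1, so results are given within each replicate number.

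Of the 10 genes, 3 rose (Lhx1, Lhx5 and Lhx9), 1 fell (Isl1) and 6 did not pass limma's test on the deposited values at an adjusted p of 0.05 (Benjamini-Hochberg over all genes). Over all 20252 genes the same test called 2.05%, with 1.27% higher and 0.780% lower in the Chx10-Cre arrays. The median log2 difference was -0.02 over the 10 genes and -0.06 over all genes. The 2 Chx10-Cre and 2 lox/lox signals did not overlap for 5 of the 10 genes, against 19.8% of all genes. With each array centred on its median, 3 of the 10 were called (Lhx1, Lhx5 and Lhx9), beside 0.583% of all genes, with 0.257% higher. The 10 genes were chosen with earlier results of these data known, so an excess over these shares is no separate support. After quantile normalization 0 of the 10 and 0 of all genes passed limma's test at 0.05 (2318 genes at an unadjusted p under 0.05). With the replicate number as a term in limma, 0 of the 10 and 0 of all genes passed at 0.05 (3513 genes at an unadjusted p under 0.05), and the adjusted p-values were 0.0718 for Lhx1 and Lhx5, 0.0835 for Lhx9 and 0.0822 for Isl1. On the deposited values limma took the spread of each gene entirely from genes of like signal, and a gene's own 2 replicates do not enter its SE or p-value there.

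**Figure D1:**
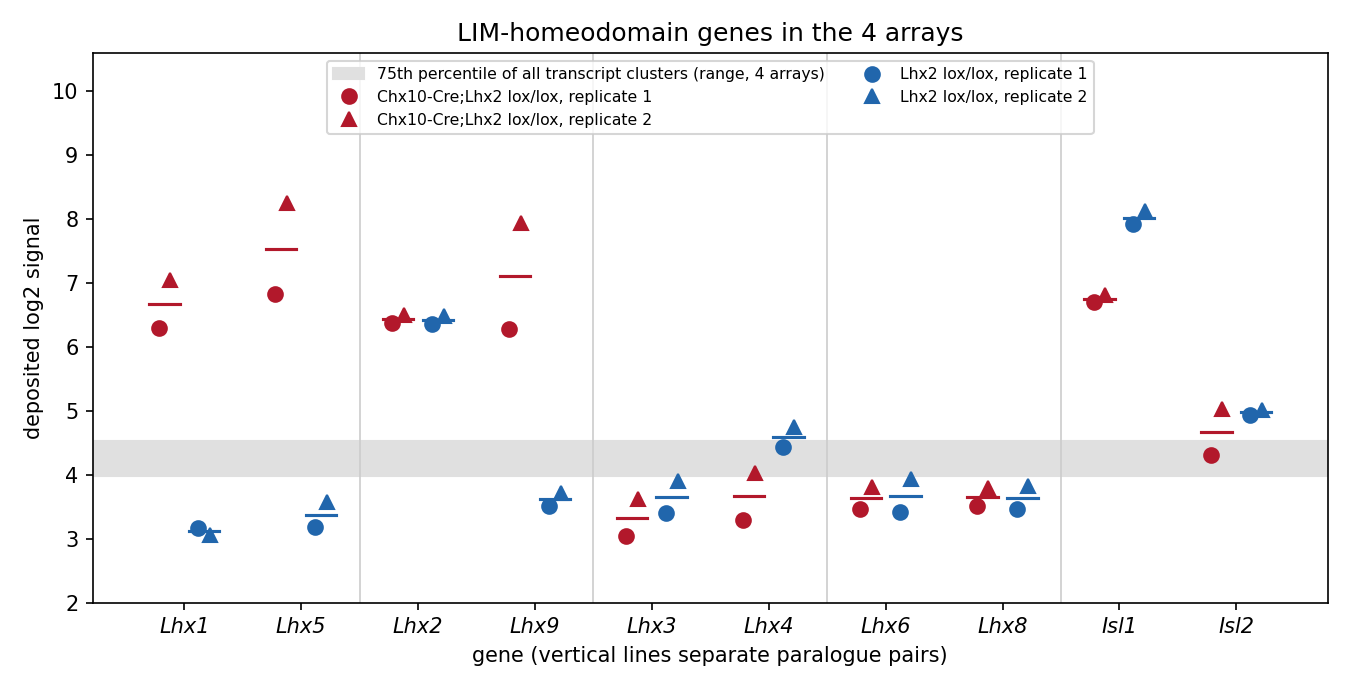
Deposited log2 signal (vertical axis) of the 10 LIM-homeodomain genes, with Chx10-Cre;Lhx2 lox/lox arrays in red to the left and Lhx2 lox/lox arrays in blue to the right of each gene (circles replicate 1, triangles replicate 2, bars group means). Lhx1, Lhx5 and Lhx9 lie above the grey background band only in red, Isl1 is lower in red, and the 4 Lhx2 points lie between 6.36 and 6.50.

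Lhx2, the targeted gene, is given first. On the log2 scale, cluster 6876532 read 6.38 and 6.50 in the Chx10-Cre arrays, against 6.36 and 6.49 in the lox/lox arrays. The groups overlapped, and the difference between replicate numbers was larger than that between genotypes. The 95% interval of the difference, from -0.68 to 0.71, corresponds to a Chx10-Cre signal of 0.625 to 1.63 times the lox/lox signal (limma adjusted p = 1). With the replicate number as a term in limma the interval was 0.792 to 1.29 times. The labels do not give the exons between the loxP sites, and the exons that the probes cover are not given in the sources used here. Probes outside the deleted part could keep their signal, so the Lhx2 signal is not taken here as a check of the genotype labels.

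Lhx9 is the closest relative of Lhx2 and is known in the developing diencephalon, spinal cord and gonad. It had log2 signals of 6.29 and 7.94 in the Chx10-Cre arrays, and of 3.52 and 3.72 in the lox/lox arrays. Both Chx10-Cre signals lay above background and both lox/lox signals below it, with no overlap. The log2 difference was 3.50 (SE 0.39, limma adjusted p = 1.74e-16), an 11.3-fold higher signal. Taken by replicate number it was 2.77 in replicate 1 and 4.22 in replicate 2. The pair of relatives gave intervals that do not meet: 2.74 to 4.25 for Lhx9, and -0.68 to 0.71 for Lhx2. Lhx2 is the targeted gene and the exons its probes cover are not given, so this does not show that the relatives responded differently. Lhx9 kept its call after median centring (adjusted p = 0.0296) and did not after quantile normalization (limma adjusted p = 0.116, with a log2 difference of 3.52).

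Lhx5 acts in the early forebrain and hippocampal primordium. Its signals were 6.84 and 8.25 in the Chx10-Cre arrays, and 3.18 and 3.58 in the lox/lox arrays. It differed by 4.16 on the log2 scale (SE 0.38, limma adjusted p = 7.55e-24), or 17.9-fold higher. By replicate number it was 3.66 in replicate 1 and 4.67 in replicate 2.

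Lhx1, the relative of Lhx5, is needed for head formation and, in the retina, for placing horizontal cells in their layer. It had signals of 6.30 and 7.05 in the Chx10-Cre arrays, and of 3.17 and 3.06 in the lox/lox arrays, again without overlap. The log2 difference was 3.56 (SE 0.42, limma adjusted p = 8.63e-15), or 11.8-fold higher, with 3.13 in replicate 1 and 3.99 in replicate 2. Both members of the Lhx1 and Lhx5 pair thus rose. After median centring their limma adjusted p-values were 0.0118 for Lhx1 and 0.0123 for Lhx5, and after quantile normalization 0.0919 for each.

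The lox/lox signals of Lhx1, Lhx5 and Lhx9 were all below background, so each of these folds is set against background. With each lox/lox array set to its 75th percentile, the Chx10-Cre signal was at least 5.21-fold higher for Lhx1, at least 9.51-fold for Lhx5 and at least 7.08-fold for Lhx9. In bulk tissue, more cells with a transcript and more transcript per cell cannot be told apart. All 3 genes differed more within the replicate 2 arrays, as did 134 of the 257 genes that rose in all. The summed mesenchyme and pigment epithelium marker signals were higher in Chx10-Cre replicate 1 than in replicate 2. The part of those tissues in the result was not tested. The 3 genes passed in each of the 4 fits that left out 1 array, in which 0.884%, 0.751%, 0.331% and 0.602% of all genes were called higher (without Chx10-Cre replicates 1 and 2 and lox/lox replicates 1 and 2, in that order), with log2 differences of 3.18 to 3.93 for Lhx1, 3.46 to 4.87 for Lhx5 and 2.67 to 4.32 for Lhx9.

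**Figure D2:**
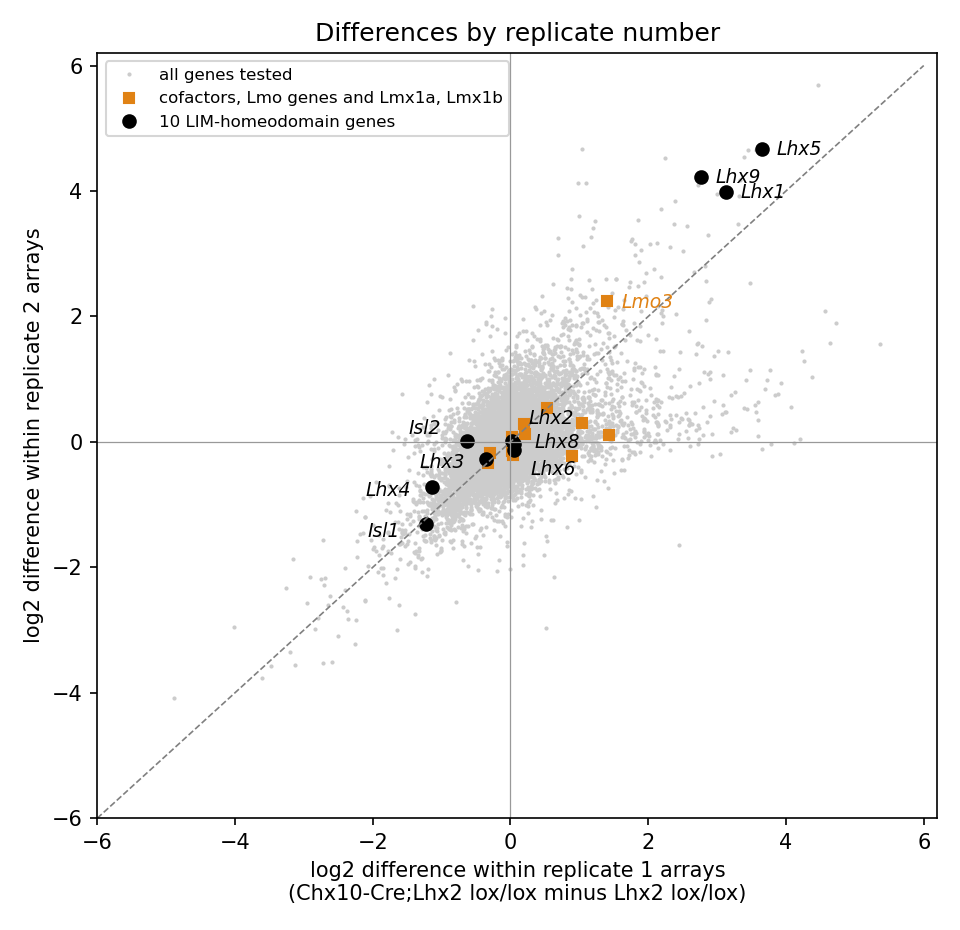
Log2 difference, Chx10-Cre;Lhx2 lox/lox minus Lhx2 lox/lox, within the replicate 1 arrays (horizontal) and the replicate 2 arrays (vertical), for all genes tested (grey), the 10 LIM-homeodomain genes (black) and 12 cofactor and related genes (orange squares). Lhx1, Lhx5 and Lhx9 lie above the dashed line of equal differences, Isl1 lies close to it at -1.23 and -1.31, and Lhx2 lies at 0.02 and 0.01.

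Isl1 is used by retinal ganglion cells, starburst amacrine cells and bipolar cells. Its signals were 6.70 and 6.81 in the Chx10-Cre arrays, and 7.92 and 8.13 in the lox/lox arrays. All 4 signals were above background and the groups did not overlap. The log2 difference of -1.27 (SE 0.36, limma adjusted p = 0.0242), a 2.41-fold lower signal, was close to equal in replicate 1 (-1.23) and replicate 2 (-1.31). The call rests on the setting: limma's adjusted p was 0.0762 after median centring (difference -1.35), 0.165 after quantile normalization (-1.23) and 0.228 with no intensity trend. With any 1 of the 4 arrays left out it lay between 0.153 and 1, with differences of -1.37 to -1.17.

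Isl2, known in a subset of retinal ganglion cells, had signals of 4.31 and 5.03 in the Chx10-Cre arrays, and of 4.94 and 5.01 in the lox/lox arrays. The groups overlapped, and the log2 difference of -0.31 had a 95% interval of -1.13 to 0.52. It was -0.63 in replicate 1 and 0.02 in replicate 2.

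Lhx4 and Lhx3 are known for pituitary and motor neuron development, and in the mouse retina for cone and bipolar cells. Lhx4 had signals of 3.30 and 4.03 in the Chx10-Cre arrays, both below background, and of 4.43 and 4.75 in the lox/lox arrays, both above it. The groups did not overlap, and the log2 difference was -0.93 (SE 0.47, limma adjusted p = 0.786), with -1.14 in replicate 1 and -0.72 in replicate 2. Lhx4 did not pass in any fit that tested it, and its limma adjusted p was 0.112 after median centring. With the Chx10-Cre arrays set to their 75th percentile, the Lhx4 signal was at least 1.27-fold lower there. Lhx3 had signals of 3.04 and 3.62 in the Chx10-Cre arrays and of 3.39 and 3.90 in the lox/lox arrays, all below background.

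Lhx6 and Lhx8, a pair used by interneurons and cholinergic neurons of the ventral forebrain, were also below background on all 4 arrays. Lhx6 had signals of 3.46 and 3.80 in the Chx10-Cre arrays and of 3.42 and 3.93 in the lox/lox arrays. Lhx8 had signals of 3.51 and 3.79 in the Chx10-Cre arrays and of 3.46 and 3.83 in the lox/lox arrays. Neither pair member differed beyond the gap between replicates, and no level of these genes was told from background in either genotype.

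**Figure D3:**
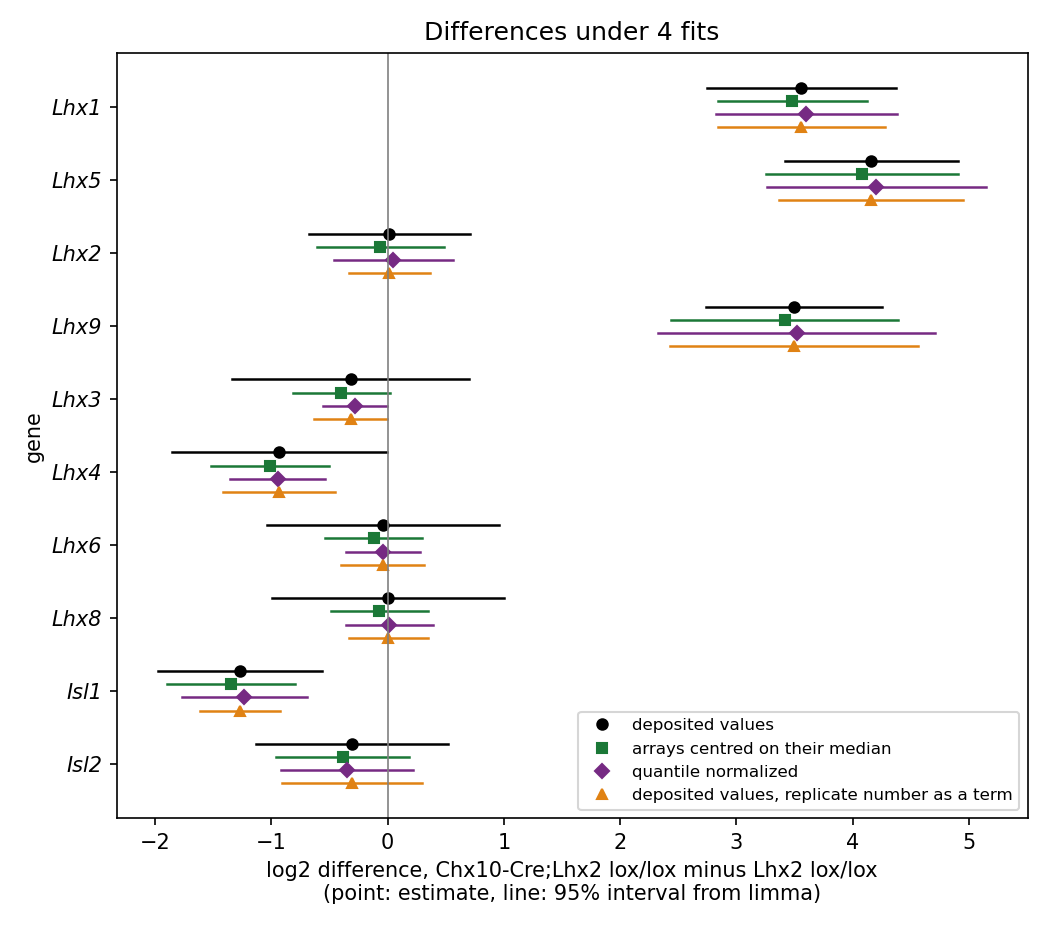
Log2 difference, Chx10-Cre;Lhx2 lox/lox minus Lhx2 lox/lox (horizontal axis), of each gene under 4 limma fits, with 95% intervals as lines. Under all 4 fits the unadjusted intervals of Lhx1, Lhx5 and Lhx9 lie above 2 and those of Isl1 and Lhx4 below 0. Those of Lhx2, Lhx6, Lhx8 and Isl2 span 0 under all 4. The Lhx3 intervals span 0 on deposited and median-centred values. They lie just below 0 after quantile normalization and with the replicate number as a term.

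Promoter sequence is shown for genes that moved, since the homeodomain of this family favours sites with the core ATTA. The 250 bases before the annotated gene start are given for Lhx1 and Lhx9, which rose, and for Isl1, which fell on the deposited values. They are from RefSeq on GRCm38.p6, written 5′ to 3′ on the gene's strand, with each ATTA (or TAAT, its reverse complement) in capitals.
Lhx1 (chr11:84525535-84525784, minus strand): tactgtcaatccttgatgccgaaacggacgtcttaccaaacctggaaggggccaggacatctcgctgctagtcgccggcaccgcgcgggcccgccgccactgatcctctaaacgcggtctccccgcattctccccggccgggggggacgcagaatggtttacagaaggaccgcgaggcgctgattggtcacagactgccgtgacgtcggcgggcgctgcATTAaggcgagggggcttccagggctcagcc
Lhx9 (chr1:138842445-138842694, minus strand): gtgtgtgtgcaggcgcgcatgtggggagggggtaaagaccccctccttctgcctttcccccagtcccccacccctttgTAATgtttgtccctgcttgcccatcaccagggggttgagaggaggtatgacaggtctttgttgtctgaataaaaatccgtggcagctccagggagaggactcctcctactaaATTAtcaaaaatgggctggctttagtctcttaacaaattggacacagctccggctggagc
Isl1 (chr13:116309689-116309938, minus strand): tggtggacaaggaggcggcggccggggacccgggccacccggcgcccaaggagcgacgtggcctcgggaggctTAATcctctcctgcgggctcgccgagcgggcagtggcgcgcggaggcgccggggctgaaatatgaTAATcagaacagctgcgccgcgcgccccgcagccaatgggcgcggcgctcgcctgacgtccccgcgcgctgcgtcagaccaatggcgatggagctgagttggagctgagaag
RefSeq windows matched 9 of the 10 genes, 13 windows in all, and Lhx5, which rose, was the gene without one. An ATTA on either strand stood in 5 of the 13, against 54.9% of 32851 windows of the same length over all genes. The longer palindrome TAATTA, which contains the core, stood in 0 of the 13 against 4.84% of all windows. Lhx1 held 1 match of the core, and Lhx9 and Isl1 held 2 each. Of the genes that did not pass, 1 of 3 windows of Lhx6 held 3 matches and 1 of 2 windows of Lhx3 held 1, and the windows of Lhx2, Lhx4, Lhx8 and Isl2 held 0. These matches describe letters only and are not binding sites.

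Among the cofactors and competitors through which LIM-homeodomain factors act, Lmo3 alone passed the test. Of 12 measured genes in a list of Ldb, Ssbp and Lmo genes, Rlim, Lmx1a and Lmx1b, 1 rose and 0 fell, and 11 did not pass, where 1.27% of all genes rose and 0.780% fell. The list median was 0.21, or 0.20 in replicate 1 and 0.10 in replicate 2. The gene that rose was Lmo3, a LIM-only gene of forebrain neurons, with signals of 5.18 and 6.39 in the Chx10-Cre arrays and of 3.78 and 4.15 in the lox/lox arrays. Its log2 difference was 1.82 (SE 0.42, limma adjusted p = 0.00134), with 1.40 in replicate 1 and 2.24 in replicate 2, and its limma adjusted p was 0.0787 after median centring. Both lox/lox signals of Lmo3 were below background, and against their 75th percentiles the Chx10-Cre signal was at least 2.82-fold higher. Lmo3 was called without Chx10-Cre replicate 1 and was not when any 1 of the other arrays was left out. Ldb1, the adaptor itself, had 9.48 and 9.47 in the Chx10-Cre arrays and 9.46 and 9.39 in the lox/lox arrays. Lmx1b, also a gene of periocular mesenchyme, had 5.37 and 4.67 in the Chx10-Cre arrays and 3.94 and 4.56 in the lox/lox arrays, and its differences of 1.43 and 0.11 within replicates 1 and 2 went in the order of the mesenchyme marker sums. The part of those cells in the Lmx1b signal was not tested.

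Genes listed by cell type as partners of the members moved in both directions. Of 38 measured partner genes in 5 groups, 7 rose and 6 fell, where 1.27% of all genes rose and 0.780% fell. With arrays centred 6 rose and 6 fell, where 0.257% of all genes were called higher and 0.326% lower. The partner lists were chosen with earlier results of these data known, so an excess over these shares is no separate support. Among 8 diencephalic and forebrain partners of Lhx1, Lhx5 and Lhx9, 5 rose and 0 fell (median 3.13). By size of p they were led by Sim1, a hypothalamic factor (5.08), Fezf1, a forebrain zinc-finger factor (4.11), and Otp, also hypothalamic (3.75). The other 2 were Tbr1 (3.40) and Wnt8b (2.85). The 2 transcript clusters of Wnt8b differed by 1.41 and 2.85. In the cluster of higher signal the difference was 1.03 in replicate 1 and 4.67 in replicate 2, and its limma adjusted p was 0.434 after median centring. The lox/lox signals of all 5 were below background, and against their 75th percentiles the Chx10-Cre signals were at least 16.9-fold higher for Sim1, 9.48-fold for Fezf1, 8.18-fold for Otp, 5.20-fold for Tbr1 and 2.32-fold for Wnt8b, which was above background on 1 of the 2 Chx10-Cre arrays.

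Horizontal cell partners of Lhx1 moved both ways. Of 9 such genes, 1 rose and 1 fell (median 0.04). The calcium-binding protein gene Calb1, a horizontal cell marker, differed by 2.16 (limma adjusted p = 4.06e-05). Its lox/lox signals were below background, which makes the Chx10-Cre signal at least 3.07-fold higher. Foxn4, which acts in progenitors of horizontal and amacrine cells, differed by -3.34 (limma adjusted p = 4.42e-18). The other 7, Onecut1, Onecut2, Onecut3, Prox1, Ptf1a, Tfap2a and Tfap2b, did not pass. Of 9 ganglion and amacrine partners of Isl1, Atoh7, a factor needed for ganglion cell formation, fell by 1.73 on the log2 scale. Eomes rose by 2.39, though the 3 transcript clusters of Eomes ranged from -0.20 to 2.39. Its lox/lox signals were 4.46 in replicate 1, above background, and 4.52 in replicate 2, not told from background. After median centring its limma adjusted p was 0.0454. The ganglion and amacrine median was 0.04.

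Of 5 cone, bipolar and photoreceptor genes, only the photoreceptor factor Crx passed. They were listed with Lhx3, Lhx4 and Isl2, though Isl2 is described above for ganglion cells, which this group does not cover. Crx had signals of 3.17 and 4.06 in the Chx10-Cre arrays and of 5.92 and 6.25 in the lox/lox arrays. With both Chx10-Cre signals below background, it was at least 3.56-fold lower there. Of 7 interneuron partners of Lhx6 and Lhx8, 0 rose and 3 fell. On the log2 scale Gad2, which makes GABA, fell by 2.54, and of the homeobox genes Dlx2 fell by 2.33 and Dlx1 fell by 2.00. Lhx6 and Lhx8 themselves were below background in both genotypes.

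**Figure D4:**
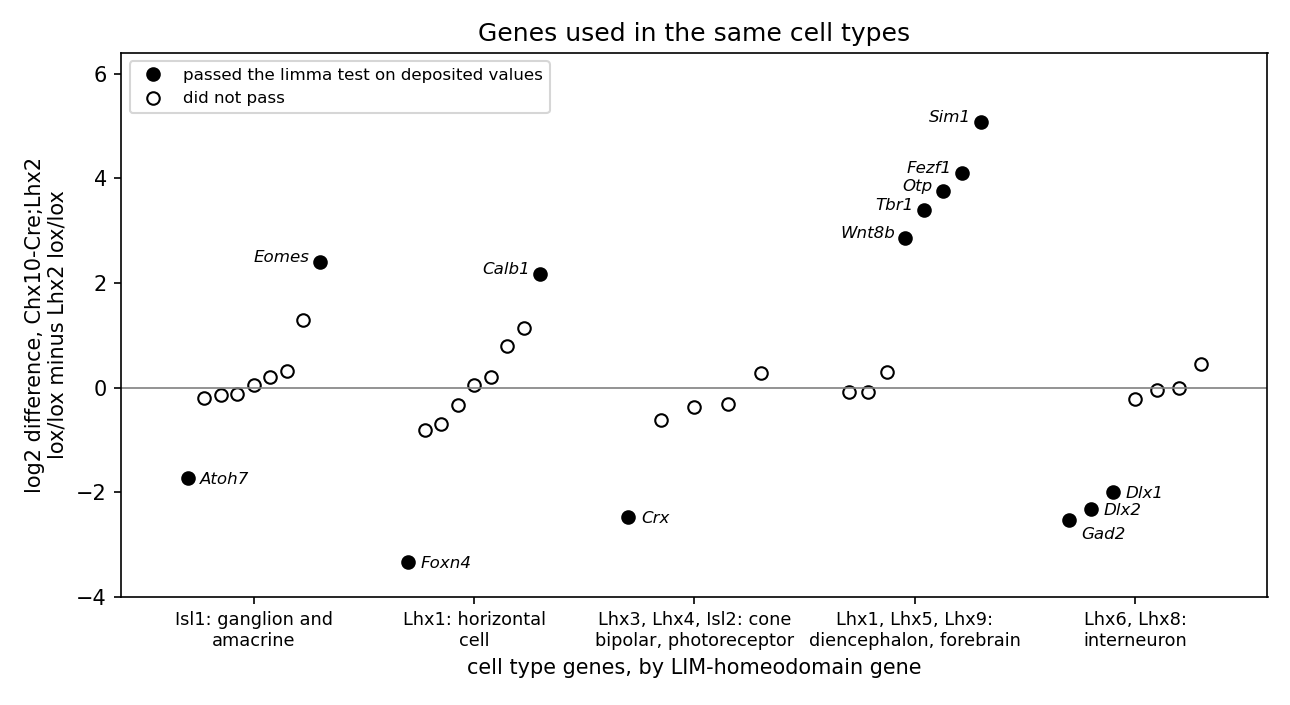
Log2 difference, Chx10-Cre;Lhx2 lox/lox minus Lhx2 lox/lox (vertical axis), of each measured partner gene in 5 groups named for the LIM-homeodomain genes they were listed with. Filled points passed limma's test on deposited values, and the 5 diencephalic and forebrain genes that rose lie between 2.85 and 5.08.

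The genes most like each called member were found by the distance between their pairs of within-replicate differences (2 values per gene) among 411 other called genes. Nearest to Lhx1 were Mlc1, a membrane protein gene of astrocytes (distance 0.127), the neuronal membrane protein gene Slitrk1 (0.207) and Otp (0.272). Nearest to Lhx5 were Fezf1 (0.092), the Wnt signalling enhancer gene Rspo3 (0.211) and A230054N11Rik (0.293). Nearest to Lhx9 were the ligand gene Wnt7b (0.077), Tbr1 (0.141) and Mlc1 (0.354). Nearest to Isl1 were Chtf18, a gene of sister chromatid cohesion (0.005), the mitochondrial serine hydroxymethyltransferase gene Shmt2 (0.005) and the kinase gene Pask (0.047). The 3 transcript clusters of A230054N11Rik ranged from 2.07 to 3.97, and the distance is that of the highest. For Lhx1, Lhx5 and Lhx9 the distances rest on lox/lox signals below background. With 2 values per gene, many genes lie close by, and the distances only describe likeness in these arrays.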

How the data were processed

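Biotin-labelled whole-transcript sense targets, made from total RNA with RiboMinus depletion of ribosomal RNA, were hybridised to Affymetrix arrays, per the labels' protocols. The authors deposited one log2 signal for each transcript cluster and array. The submitters' processing notes name RMA, Partek and mm9, with no version or role. Array medians differed, so the values were not on a common scale.

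Of 112205 clusters, 25513 had 1 gene symbol in the platform annotation, 2290 had several and 84402 were unnamed here. Each of 20252 genes was taken from its cluster of highest mean signal. Testing used limma 3.58.1 under R 4.3.3 (intensity trend, genotype as the only term, two-sided, Benjamini-Hochberg over all genes, adjusted p of 0.05). On simulated data this fit made more false calls than its threshold states, while median centring did not. The simulation gave each array a constant shift, which is what centring removes, and left out gene-specific deviations shared by same-numbered arrays. It therefore cannot show the error rate of either fit in these data. "Rose" and "fell" refer to the deposited values. Alternatives covered scaling, a filter on dim genes, the variance prior, the rule for several clusters, the replicate number and each array left out. Named genes are all 10 members, cofactors that passed, up to 3 passing partners per group by p, and 3 nearest genes per called member. Lmx1b, Ldb1, Tbr1 and Wnt8b among partners, the partners listed as not passing, and Lhx1os were chosen after their values were seen. Members, lists and tests were chosen with earlier results of these data known. Deviations of same-numbered arrays from their group means correlated at 0.479 across genes, and with 2 pairs this does not show that the numbers pair the samples. The number of arrays limits precision.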

Additional observations from a re-analysis of the deposited data

How the results depend on the processing

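Limma called 415 genes on deposited values. Counts were 118 after median centring, 0 after quantile normalization (86 with the threshold at 0.10), 19 of 10126 genes above the median level, 271 with no intensity trend, 233 and 285 without Chx10-Cre replicates 1 and 2, and 127 and 148 without lox/lox replicates 1 and 2. Of the 10 LIM-homeodomain genes 4 were called, against 3 after median centring, 0 after quantile normalization (2 at 0.10) and 1 of 6 above the median level. Of the cofactors and related genes 1 was called, against 0 after median centring, after quantile normalization at 0.05 and at 0.10, and above the median level, and 0 to 1 with 1 array left out. Of the partner genes 13 were called, against 12 after median centring, 0 after quantile normalization (9 at 0.10) and 3 of 26 above the median level. With the replicate block, 0 genes, 0 LIM-homeodomain genes, 0 cofactors and 0 partners passed at 0.05 (3513 genes at an unadjusted p under 0.05). At 0.10, a threshold added after seeing the data, 415 genes (160 higher and 255 lower, against 257 and 158 on the deposited values without the block) and 4 LIM-homeodomain genes did. So did 1 of the cofactors and related genes and 12 partner genes. Above the median level the limma adjusted p was 0.0528 for Lhx5, 0.115 for Lhx9 and 0.215 for Isl1, where fewer genes were tested. Lhx1, Lhx5 and Lhx9 entered that filter on their mean over all arrays only through the Chx10-Cre arrays, so their results there are no separate support. Of the genes not called on deposited values, 4 changed sign. With 1 array left out, Lhx2 ran from -0.049 to 0.081, Lhx6 from -0.30 to 0.22, Lhx8 from -0.18 to 0.19 and Isl2 from -0.67 to 0.056, and after median centring Lhx2 was -0.063 and Lhx8 -0.073. Lhx1, Lhx5, Lhx9 and Isl1 kept their direction under all alternatives run. With 1 array left out, the lone array of a group is assumed to vary like the others, and the median over all genes moved between -0.33 and 0.20. The causes of these changes were not tested.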

Other observations

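Lhx1os is a long noncoding RNA gene that lies head to head with Lhx1, on the opposite strand, in the RefSeq annotation of GRCm38.p6. Its signals were 4.34 and 6.02 in the Chx10-Cre arrays, and 3.27 and 3.72 in the lox/lox arrays, without overlap. The log2 difference was 1.69 (SE 0.46, limma adjusted p = 0.0149), with 1.08 in replicate 1 and 2.30 in replicate 2, and the adjusted p was 0.170 after median centring. As for Lhx1, both lox/lox signals were below background, which makes the Chx10-Cre signal at least 1.85-fold higher, and the difference was larger within the replicate 2 arrays. Lhx1os was looked up after the values of Lhx1 were seen.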
